A study of Mus musculus with 18 samples.

Results

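The genes described here move iron, zinc and heme into, within and out of cells: the metal importers *Slc39a14*, *Slc39a8*, *Slc11a1*, *Slc11a2* and *Tfrc*, the mitochondrial iron importer *Slc25a37*, the ferritin subunits *Fth1* and *Ftl1*, the iron exporter *Slc40a1* and the heme-degrading enzyme *Hmox1*. They were taken by symbol from the annotation of GRCm38, and 10 of 10 were found among the 55385 genes of the count table. All 10 passed the filter on low counts, and the least expressed, *Slc39a8*, had a mean of 476.1 counts per library. RNA came from bone marrow-derived macrophages (BMDM) of female C57BL/6J mice aged 12 weeks, grown with medium conditioned by L-929 cells. The cells were given vehicle (Veh, 0.1% DMSO), 250 µM hemicholinium-3 (HC3), which blocks choline uptake, or 5 µM RSM-932a (RSM), which blocks choline kinase, for 24 h. The next 24 h were spent either without cytokine (naïve, M[0]) or with IL-4 at 20 ng/mL (M[IL-4]). Each of the 6 groups had 3 libraries from 3 individual mice, 18 in all. Every group is thus a culture grown with added growth factor from 1 strain, 1 sex and 1 age, and no gene was deleted, so no targeted transcript checks the labels of the inhibitors. Whether HC3 and RSM were also given in DMSO is not given in the sources used here.

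Iron enters macrophages bound to transferrin, as free metal or inside engulfed red cells, and free iron leaves through ferroportin, the product of *Slc40a1*. Iron in the cytosol is held in ferritin or passed to mitochondria, where it is built into heme and iron-sulfur clusters, and heme oxygenase frees iron from heme. When cellular iron is low, the iron regulatory proteins bind a stem-loop called the iron responsive element (IRE), which blocks translation when it lies in the 5′ UTR and protects the mRNA when it lies in the 3′ UTR of *Tfrc*. *Slc39a14* and *Slc39a8* encode ZIP14 and ZIP8, which carry zinc, iron and manganese into the cytosol, and both respond to inflammatory signals. C57BL/6 mice carry a non-functional allele of *Slc11a1* (NRAMP1), so its values speak of transcript alone.

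An IRE-like stem-loop was found in the UTRs of 5 of the 10 genes. These sites are shown because they divide the list into genes with and without an annotated transcript that holds a match. Counts pool all transcripts of a gene, so they do not show how much of its RNA holds the site. The search was for C, any 5 bases, CAGTGN and 5 bases of which at least 4 pair with the first 5, on the sense strand of annotated transcripts. Each window has 30 bases, written 5′ to 3′ as DNA, and the capitals mark the loop.
Fth1, 5′ UTR, GRCm38 chr19:9982732-9982761, plus strand: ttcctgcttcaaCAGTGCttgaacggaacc
Ftl1, 5′ UTR, chr7:45459778-45459807, minus strand: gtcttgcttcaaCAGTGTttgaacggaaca
Slc40a1, 5′ UTR, chr1:45925464-45925493, minus strand: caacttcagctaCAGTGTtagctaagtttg
Slc11a2, 3′ UTR, chr15:100395152-100395181, minus strand: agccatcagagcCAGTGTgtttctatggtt
Tfrc, 3′ UTR, chr16:32631219-32631248, plus strand: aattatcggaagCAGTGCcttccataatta
Tfrc, 3′ UTR, chr16:32631598-32631627, plus strand: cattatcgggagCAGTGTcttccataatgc
Tfrc, 3′ UTR, chr16:32631663-32631692, plus strand: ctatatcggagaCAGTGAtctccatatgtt
Tfrc, 3′ UTR, chr16:32631710-32631739, plus strand: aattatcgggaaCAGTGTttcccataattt
The ferritin sites share the stem bases on both sides of the loop, and the *Slc11a2* site has 4 of 5 pairs where the others have 5. A site of this form was present in the 5′ UTR of 206 of 20597 genes (1%) and in the 3′ UTR of 872 of 20979 genes (4.16%). No match was found for *Slc39a14*, *Slc39a8*, *Slc25a37*, *Slc11a1* or *Hmox1*. A match is a stretch of letters and not a measured binding site.

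RefSeq promoter windows of 250 bases before to 50 bases after a start site (GRCm38.p6) were matched for 5 members, with 8 windows in all. The core of the antioxidant response element, TGACNNNGC, which NRF2 binds, was in 12.4% of all 32851 windows and, among these 8, in a window of *Slc39a8*, where the capitals mark the core on the minus strand.
Slc39a8, promoter, GRCm38.p6 chr3:135825236-135825260, plus strand: tatcccgaGCGGCGTCAggaagggc
The hypoxia core ACGTG (19.6% of all windows) and the metal response core TGCACNC or TGCGCNC (25.7%) were each present in windows of *Slc39a8* and *Tfrc*, and the ATF4 core TGATGNAA (3.97%) was in none of the 8. All cores were read on both strands, and a core can overlap its own reverse complement, as ACGTG and the metal core do here. The windows of *Slc11a1*, *Fth1* and *Ftl1* held none of these letters. Promoters of *Slc39a14*, *Slc25a37*, *Slc11a2*, *Slc40a1* and *Hmox1* were not analysed here.

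Libraries held 17457796 to 19522255 counts, and no library was left out. Levels are given as CPM, counts scaled to a common library size after TMM scaling. All 8 macrophage markers were detected, but their summed level moved with treatment: it ranged over 20622 to 21611 CPM in Veh M[0], 8947 to 9963 in HC3 M[0], 15911 to 17288 in RSM M[0], 12172 to 12454 in Veh M[IL-4], 7827 to 8937 in HC3 M[IL-4] and 11103 to 13346 in RSM M[IL-4]. *Lyz2*, at 11633 CPM in Veh M[0] and 11660 CPM in RSM M[0], made up most of the sum in those groups. Counted gene by gene, 8 of the 8 markers fell with HC3 in M[0] (6 called, median log2 FC -1.21) and 7 with RSM (3 called, median -0.84), with *Adgre1* at 2837 CPM in Veh, 1218 with HC3 and 1267 with RSM. In M[IL-4] 7 fell and 1 rose with HC3 (median -0.52), and 1 fell and 2 rose with RSM (median 0.04). The summed level of 8 stromal markers, 7 of which passed the count filter, was 548 to 939 CPM in Veh M[0], 1279 to 1769 in HC3 M[0], 1052 to 1515 in RSM M[0], 296 to 698 in Veh M[IL-4], 589 to 1108 in HC3 M[IL-4] and 551 to 1099 in RSM M[IL-4]. The collagen genes *Col1a1* and *Col1a2* carried this sum, and the other markers that passed the filter were mixed in M[0]. From Veh to HC3 and RSM, *Col3a1* went from 42.2 CPM to 115 and 94.2, and *Pdgfrb* from 31.4 to 49.7 and 52.3. *Cxcl12* went from 44.1 CPM to 65.7 and 22.5, *Pdgfra* from 22.1 to 19.0 and 16.2, and *Dcn* from 8.50 to 7.91 and 2.99. The part of either in the results was not tested, and in bulk RNA fewer cells of a type and less RNA per cell cannot be told apart. The 10 erythroid markers, from cells whose iron genes overlap this list, summed to at most 1.16 CPM in any library. Neutrophil and dendritic cell markers summed to at most 2.90 CPM, while the 6 B cell markers reached 27.8 CPM in Veh M[0] and at most 7.06 CPM in the other groups.

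Differences were tested by edgeR's quasi-likelihood test across 14979 genes. A gene is said to have risen or fallen when its false discovery rate (FDR) was under 0.05, and to be called when its log2 fold change (FC) was also at least 1 or at most -1. Compared with Veh, HC3 in M[0] raised 6 of the 10 genes (22.6% of all genes tested rose) and lowered 1 (21.5% fell), and 3 members were called higher, against 5.93% of all genes tested. RSM in M[0] raised 8 members (20.5% of all genes) and lowered 1 (20.7%), and 2 were called higher (5.05% of all genes). HC3 in M[IL-4] raised 7 (18.9% of all genes) and lowered 1 (19.9%), and 2 were called higher (4.72% of all genes). RSM in M[IL-4] raised 5 (20.1% of all genes) and lowered 1 (18.5%), and here 3 were called higher (5.05% of all genes) and 1 lower (6.00%). The median log2 FC of the 10 genes was 0.60, 0.75, 0.46 and 0.30 in these comparisons, where the median of all genes tested was 0.02, 0.01, 0.01 and 0.02. Both inhibitors were compared with the same Veh libraries, so the 2 comparisons within a polarization are not independent. With the replicate block within each polarization the members past the FDR threshold were 9 higher and 1 lower for HC3 in M[0] (28.0 and 25.5% of all genes), 8 and 1 for RSM in M[0] (25.7 and 25.2%), 7 and 2 for HC3 in M[IL-4] (24.6 and 24.4%) and 7 and 1 for RSM in M[IL-4] (26.3 and 23.0%). The fall counted with HC3 in M[0], of *Slc40a1*, missed the threshold without replicate 1 or 3.

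**Figure D1:**
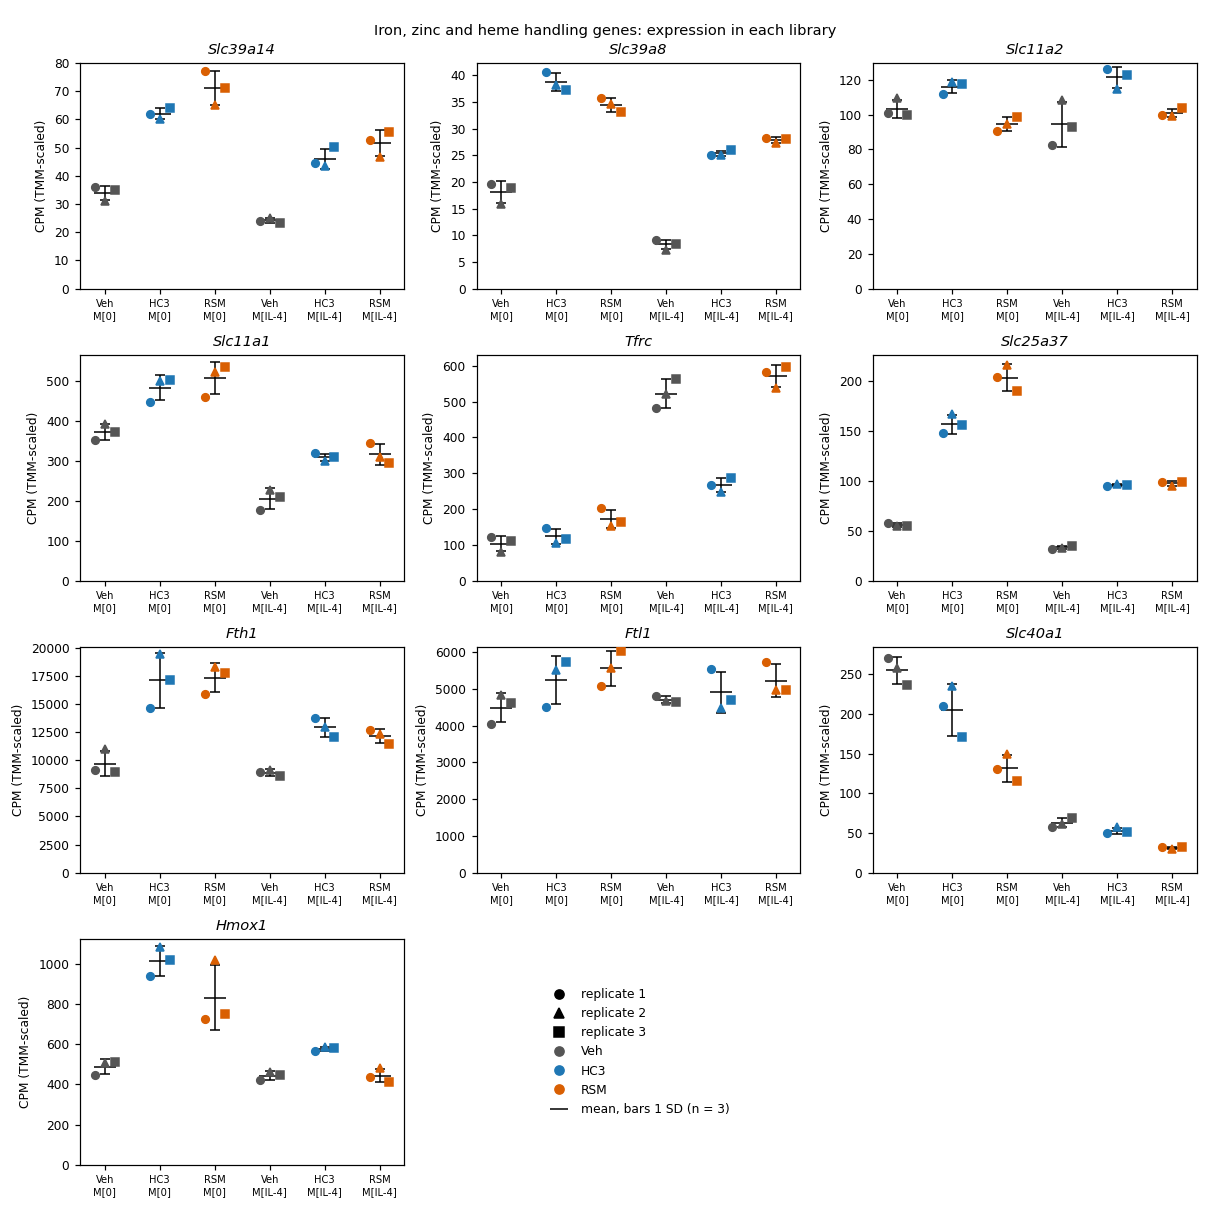
Level of each of the 10 genes in all 18 libraries, in CPM on a linear axis from 0, by group, with the mean and SD of 3 libraries and a marker shape for each replicate number. *Slc25a37*, *Slc39a14* and *Slc39a8* lie higher under both inhibitors than under Veh in both polarizations, *Slc40a1* is lower in M[IL-4] than in M[0] throughout, and *Tfrc* is the reverse, with its HC3 M[IL-4] libraries at 247 to 286 CPM between the M[0] libraries and the other M[IL-4] libraries.

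Of the ZIP family of metal importers, *Slc39a8* and *Slc39a14* rose with both inhibitors in both polarizations. *Slc39a8* (chr3:135825279-135888572, plus strand) was at 19.7, 15.9 and 18.8 CPM in Veh M[0], at 40.6, 38.2 and 37.3 CPM with HC3 and at 35.7, 34.6 and 33.1 CPM with RSM. In M[IL-4] it was at 9.15, 7.32 and 8.34 CPM with Veh, at 25.1, 25.1 and 25.9 CPM with HC3 and at 28.3, 27.3 and 28.1 CPM with RSM. No libraries of any pair of groups overlapped, and every inhibitor library, M[IL-4] included, was above every Veh library. The log2 FC was 1.09 ± 0.09 (SE, FDR = 6.42e-09) for HC3 and 0.93 ± 0.09 (FDR = 6.94e-08) for RSM in M[0]. In M[IL-4] it was 1.61 ± 0.09 (FDR = 1.47e-10) for HC3 and 1.75 ± 0.09 (FDR = 4.14e-11) for RSM, a 3.06-fold and a 3.37-fold rise. The difference between polarizations was itself past the FDR threshold, by 0.52 on the log2 scale with HC3 (FDR = 0.018) and by 0.82 with RSM (FDR = 0.000291). The HC3 difference missed it when replicate 1, 2 or 3 was left out (FDR 0.0527 to 0.369) or when the other groups were left out of the fit (FDR = 0.0554), and the RSM difference missed it without replicate 3 (FDR = 0.0782).

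*Slc39a14* (chr14:70303469-70351425, minus strand) was at 36.1, 31.2 and 34.9 CPM in Veh M[0], at 61.9, 60.2 and 64.1 CPM with HC3 and at 77.3, 65.1 and 71.1 CPM with RSM. Its M[IL-4] levels were 24.0, 25.2 and 23.4 CPM with Veh, 44.4, 43.4 and 50.2 CPM with HC3 and 52.8, 46.6 and 55.4 CPM with RSM. The inhibitor libraries were again above all Veh libraries. The log2 FC was 0.86 ± 0.08 (SE, FDR = 9.55e-08) for HC3 and 1.06 ± 0.08 (FDR = 6.41e-09) for RSM in M[0], and 0.93 ± 0.09 (FDR = 6.87e-08) and 1.09 ± 0.09 (FDR = 6.82e-09) in M[IL-4]. Only the RSM values were called, and the values for both inhibitors lie close to the FC threshold; without replicate 2, HC3 in M[IL-4] reached 1.0001 and was called too. The change did not differ between polarizations at the FDR threshold, with a difference of 0.06 (95% interval -0.19 to 0.31) for HC3 and 0.03 (-0.22 to 0.28) for RSM.

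The transferrin receptor gene *Tfrc* (chr16:32608920-32632794, plus strand), which takes up transferrin-bound iron, was at 122, 79.4 and 110 CPM in Veh M[0], at 148, 106 and 117 CPM with HC3 and at 202, 154 and 164 CPM with RSM. Under IL-4 it was at 481, 522 and 563 CPM with Veh, at 266, 247 and 286 CPM with HC3 and at 582, 537 and 598 CPM with RSM. All RSM libraries were above all Veh libraries in M[0], whereas in M[IL-4] the RSM and Veh libraries overlapped and all HC3 libraries lay below both. RSM raised *Tfrc* in M[0] (log2 FC 0.74 ± 0.14 SE, FDR = 0.00026) but not past the threshold in M[IL-4] (0.13 ± 0.13, FDR = 0.473). HC3 lowered it in M[IL-4], by 0.97 ± 0.14 on the log2 scale (FDR = 1.3e-05), and in M[0] gave 0.25 ± 0.14 (FDR = 0.151). Without replicate 1 the fall with HC3 in M[IL-4] was -1.02 and was called. With replicate number as a block within each polarization, HC3 in M[0] (FDR = 0.000751) and RSM in M[IL-4] (FDR = 0.0455) also passed the FDR threshold, both higher than Veh. The effect of HC3 differed between polarizations by -1.22 ± 0.19 on the log2 scale (FDR = 0.000702), the sole member called for an interaction with HC3 (0.761% of all genes were called in this direction). Without replicate 3 the difference was -1.28 with an FDR of 0.0729. For RSM the difference was -0.61 ± 0.19 (FDR = 0.0563), and 3.4e-06 with the block.

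The natural resistance-associated macrophage protein genes encode proton-driven carriers of divalent metal, *Slc11a1* in the phagosome and *Slc11a2* (DMT1) in endosomes and at the cell surface. *Slc11a1* (chr1:74375195-74386062, plus strand) was at 352 to 393 CPM in Veh M[0], 448 to 503 with HC3 and 462 to 536 with RSM, and at 177 to 229, 302 to 319 and 295 to 345 CPM in M[IL-4]. Inhibitor and Veh libraries did not overlap within either polarization. The log2 FC was 0.38 ± 0.09 (SE, FDR = 0.00143) for HC3 and 0.45 ± 0.09 (FDR = 0.000353) for RSM in M[0], and 0.60 ± 0.09 (FDR = 2.06e-05) and 0.63 ± 0.09 (FDR = 1.07e-05) in M[IL-4]; without replicate 3 the rise with HC3 in M[0] had an FDR of 0.0625.

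*Slc11a2* (chr15:100387898-100425072, minus strand) stayed between 82.5 and 126 CPM in all 18 libraries. It rose with HC3 in M[IL-4] (log2 FC 0.36 ± 0.08 SE, FDR = 0.000967). HC3 in M[0] gave 0.17 ± 0.08 (FDR = 0.0893, and 0.0364 with the replicate block within each polarization), and RSM gave -0.13 ± 0.08 (FDR = 0.193) in M[0] and 0.09 ± 0.08 (FDR = 0.363) in M[IL-4]. An antisense gene, *Gm5475*, covers 6.33% of the exons of *Slc11a2*, and the strand setting of the counting is not stated.

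The mitochondrial iron importer gave the largest change of the 10 genes in M[0]. *Slc25a37* (chr14:69241848-69285112, minus strand) encodes mitoferrin-1, which brings iron through the inner mitochondrial membrane. It was at 58.0, 54.6 and 55.1 CPM in Veh M[0], at 148, 167 and 156 CPM with HC3 and at 204, 217 and 190 CPM with RSM. In M[IL-4] it was at 32.2, 33.2 and 35.1 CPM with Veh, at 94.7, 96.7 and 95.7 CPM with HC3 and at 99.2, 94.8 and 99.2 CPM with RSM. Every inhibitor library in both polarizations was above every Veh library, and the HC3 and RSM libraries overlapped only in M[IL-4]. The log2 FC was 1.49 ± 0.06 (SE, FDR = 8.97e-13) for HC3 and 1.87 ± 0.06 (FDR = 7.27e-14) for RSM in M[0], a 2.81-fold and a 3.65-fold rise, and it was 1.51 ± 0.06 (FDR = 1.49e-12) and 1.55 ± 0.06 (FDR = 1.93e-12) in M[IL-4]. It was the sole member called in all 4 inhibitor comparisons. The RSM effect was smaller in M[IL-4] than in M[0] by 0.32 on the log2 scale (FDR = 0.0249), and this difference missed the threshold when any replicate was left out (FDR 0.0627 to 0.256) and with no count filter (FDR = 0.069). Of the exons, 6.33% are overlapped by the antisense genes *Gm27223* and *Gm31748*, and 6.45% of the longest transcript is near-identical to other genes.

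Its paralog *Slc25a28* (mitoferrin-2) did not pass the FDR threshold in any of the 4 inhibitor comparisons. Of 19 genes for mitochondrial iron and iron-sulfur cluster assembly, all tested and *Slc25a37* included, 7 rose and none fell with HC3 in M[0], 5 rose and none fell with RSM in M[0], 5 rose and 2 fell with HC3 in M[IL-4], and 7 rose and 2 fell with RSM in M[IL-4]. Over all genes tested, 18.9 to 22.6% rose and 18.5 to 21.5% fell in these comparisons, against which this and the other list counts are to be read. *Slc25a37* was the 1 gene of the list that was called in each. In M[0] with HC3, the rises included *Nfu1*, a late cluster carrier (log2 FC 0.55, FDR = 1.39e-06). The list's median log2 FC was 0.13, 0.22, 0.18 and 0.24 in the 4 comparisons, in the order above. Of 11 tested genes of heme synthesis, none was called in any of the 4 comparisons, where 10.3 to 12.0% of all genes were called; 1 or 2 rose and 2 to 5 fell in each, with list medians of -0.10, -0.07, -0.18 and -0.10.

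**Figure D2:**
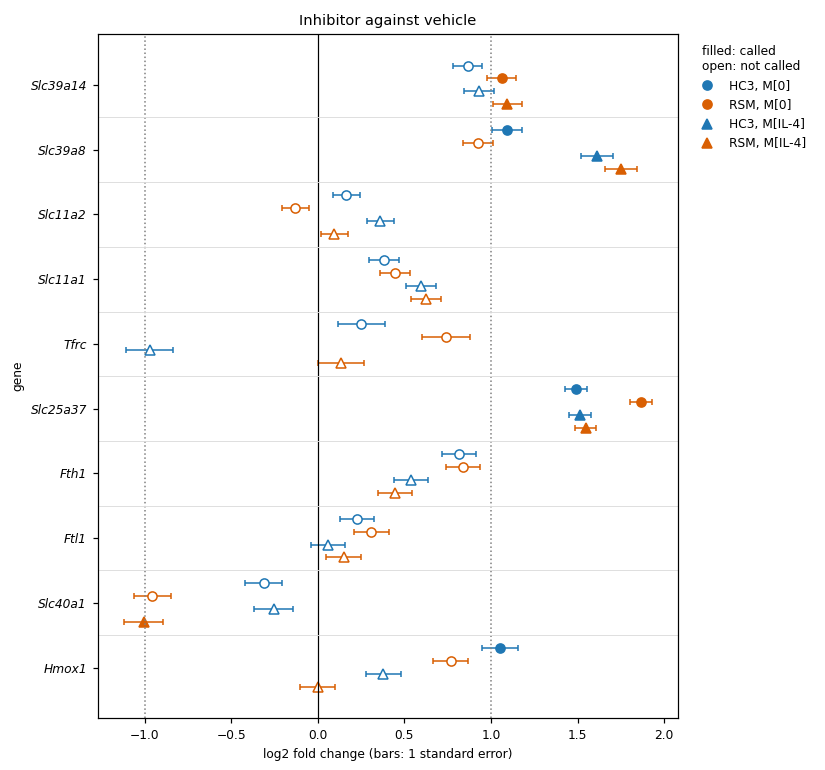
Log2 FC of each gene for HC3 (blue) and RSM (orange) against Veh, in M[0] (circles) and M[IL-4] (triangles), with bars of 1 SE; filled symbols are called and dotted lines mark -1 and 1. *Slc25a37* is filled in all 4 comparisons, *Slc40a1* lies near -1 for RSM alone, and *Tfrc* lies at -0.97 for HC3 in M[IL-4] with its other values above 0.

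Of the ferritin subunits, the heavy chain rose in all 4 inhibitor comparisons and the light chain passed the threshold in 1 of them. *Fth1* (chr19:9980598-9985098, plus strand) encodes the heavy chain, which oxidizes iron for storage, and *Ftl1* (chr7:45457944-45459884, minus strand) the light chain, which supports the mineral core. *Fth1* was at 9116, 10999 and 8985 CPM in Veh M[0], at 14656, 19473 and 17136 CPM with HC3 and at 15886, 18315 and 17773 CPM with RSM. Its M[IL-4] levels were 8982, 9169 and 8554 CPM with Veh, 13776, 12969 and 12062 CPM with HC3 and 12706, 12306 and 11420 CPM with RSM. All inhibitor libraries were above all Veh libraries. The log2 FC was 0.82 ± 0.10 (SE, FDR = 1.71e-06) for HC3 and 0.84 ± 0.10 (FDR = 1.33e-06) for RSM in M[0], and 0.54 ± 0.10 (FDR = 0.000213) and 0.45 ± 0.10 (FDR = 0.00116) in M[IL-4]. The smaller rise in M[IL-4] was a difference of -0.28 with HC3 (FDR = 0.28) and -0.39 with RSM (FDR = 0.0913), and with the replicate block within each polarization these FDR were 0.00332 and 6.67e-05.

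*Ftl1* was at 4039 to 4819 CPM in Veh M[0], 4507 to 5726 with HC3 and 5080 to 6025 with RSM, and at 4631 to 4803, 4485 to 5529 and 4954 to 5729 CPM in M[IL-4]. It rose with RSM in M[0] (log2 FC 0.31 ± 0.10 SE, FDR = 0.0186, and 0.212 without replicate 3). HC3 in M[0] gave 0.23 ± 0.10 (FDR = 0.0756), HC3 in M[IL-4] 0.06 ± 0.10 (FDR = 0.683) and RSM in M[IL-4] 0.15 ± 0.10 (FDR = 0.257), and with the replicate block within each polarization the FDR of the first and the last of these was 0.000247 and 0.011. The whole of its longest transcript is near-identical to other genes, among them *Ftl1-ps1*, to which 39703 counts (2.37% of those of *Ftl1*) were assigned, and 26.5% of its exons are overlapped by the antisense gene *Gm10252*, so its level and its changes are uncertain. The 2 ferritin genes together took 1.32 to 1.54% of all counts in Veh M[0], 1.96 to 2.53% with HC3 and 2.19 to 2.46% with RSM. In M[IL-4] they took 1.27 to 1.35% with Veh, 1.68 to 1.94% with HC3 and 1.63 to 1.85% with RSM. These shares did not overlap between Veh and either inhibitor within a polarization.

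Of the 6 tested genes for iron storage and release, *Ncoa4*, the receptor that carries ferritin to lysosomes for breakdown, fell where *Fth1* rose. Its mean was 230 ± 20.3 CPM (SD, n = 3) in Veh M[0], 102 ± 10.9 with HC3 and 74.7 ± 3.32 with RSM, and 188 ± 27.7, 109 ± 14.8 and 84.6 ± 12.1 CPM in M[IL-4]. In M[0] it fell by 1.17 with HC3 (FDR = 2e-07) and 1.62 with RSM (FDR = 3.32e-09) on the log2 scale, and with IL-4 by 0.79 (FDR = 2.86e-05) and 1.15 (FDR = 2.89e-07). *Hfe*, the hemochromatosis gene, a partner of the transferrin receptor, fell by 1.59 (FDR = 1.38e-10) and 1.12 (FDR = 1.16e-08) with HC3 in M[0] and M[IL-4] and by 0.57 (FDR = 4.49e-05) and 0.25 (FDR = 0.031) with RSM. In this list 2 genes rose and 2 fell in each M[0] comparison, and 1 rose and 2 fell in each M[IL-4] comparison. None of the 3 tested genes of the iron regulatory system was called in any of the 4 comparisons, where 10.3 to 12.0% of all genes were called. *Ireb2* did not pass the FDR threshold in any of them. *Aco1* fell by 0.20 with HC3 in M[0] (FDR = 0.0188), and in M[IL-4] by 0.46 with HC3 (FDR = 1.32e-05) and 0.48 with RSM (FDR = 7.62e-06). *Fbxl5*, the iron-sensing adaptor that removes iron regulatory protein 2, rose with RSM (log2 FC 0.57, FDR = 1.11e-05 in M[0], and 0.40, FDR = 0.000473 in M[IL-4]).

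The iron exporter *Slc40a1* (chr1:45908068-45926523, minus strand) was the member lowered by RSM in both polarizations. It was at 270, 258 and 236 CPM in Veh M[0], at 210, 236 and 171 CPM with HC3 and at 130, 149 and 115 CPM with RSM. Under IL-4 it was at 58.1, 61.9 and 68.9 CPM with Veh, at 50.04, 57.4 and 50.9 CPM with HC3 and at 32.5, 29.5 and 32.0 CPM with RSM. The RSM libraries were clear of the others in both polarizations, whereas the highest HC3 library in each was less than 1 CPM below the lowest Veh library (235.6 against 236.4 CPM in M[0], 57.4 against 58.1 CPM in M[IL-4]). RSM lowered it by 0.95 ± 0.11 on the log2 scale in M[0] (SE, FDR = 7.13e-07), and its fall in M[IL-4] was 1.00 ± 0.11 (FDR = 8.92e-07), the second of which was called. Both lie at the FC threshold: the value in M[0] was -1.05 and called without replicate 2, and the value in M[IL-4] was -0.99 without replicate 2 and -0.96 without replicate 3 and not called. HC3 lowered it by 0.31 ± 0.11 in M[0] (FDR = 0.0221, and 0.157 and 0.089 without replicate 1 and 3). In M[IL-4] HC3 gave -0.25 ± 0.11 (FDR = 0.0785, and 0.00427 with the replicate block within each polarization).

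Of the 3 tested genes for iron export, the copper-dependent ferroxidase *Cp*, which helps load exported iron on transferrin, rose with HC3 in M[0] (log2 FC 1.18, FDR = 0.000138) and in M[IL-4] (1.78, FDR = 3.11e-06). RSM gave 0.10 in M[0] (FDR = 0.749) and raised it in M[IL-4] (0.86, FDR = 0.00496). Its mean was 10.4 ± 3.84 CPM (SD, n = 3) in Veh M[0] and 23.8 ± 2.77 CPM with HC3. Among the 3 tested heme exporters, *Abcg2* fell in all 4 comparisons. In M[0] it fell by 0.83 with HC3 (FDR = 5.37e-05) and by 1.15 with RSM (FDR = 1.38e-06), and by 1.10 with HC3 (FDR = 2.46e-06) and 1.14 with RSM (FDR = 1.37e-06) in M[IL-4], on the log2 scale. *Flvcr1*, whose product has been described as a carrier of heme and of choline, rose with HC3 (log2 FC 0.55, FDR = 0.000988 in M[0], and 0.64, FDR = 0.000268 in M[IL-4]) and with RSM in M[0] (0.44, FDR = 0.00577), and with RSM in M[IL-4] gave 0.28 (FDR = 0.0697).

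Heme oxygenase-1, encoded by *Hmox1* (chr8:75093621-75100589, plus strand), opens the heme ring to release iron, carbon monoxide and biliverdin, and its gene is induced by heme and by NRF2. It was at 446, 509 and 513 CPM in Veh M[0], at 938, 1087 and 1020 CPM with HC3 and at 727, 1019 and 749 CPM with RSM. In M[IL-4] it was at 420, 462 and 449 CPM with Veh, at 564, 586 and 579 CPM with HC3 and at 436, 481 and 414 CPM with RSM. In M[0] both inhibitors gave libraries above all Veh libraries, with replicate 2 of RSM standing above the other RSM libraries. In M[IL-4] the RSM libraries overlapped with Veh. HC3 gave a log2 FC of 1.05 ± 0.10 (SE, FDR = 1.16e-07) in M[0] and 0.38 ± 0.10 (FDR = 0.00624) in M[IL-4], the latter with an FDR of 0.083 without replicate 3. RSM gave 0.77 ± 0.10 (FDR = 6.46e-06) in M[0], and in M[IL-4] the 95% interval of the log2 FC was -0.21 to 0.21 (FDR = 0.997). The effect was smaller in M[IL-4] by 0.68 on the log2 scale for HC3 (FDR = 0.00741) and by 0.77 for RSM (FDR = 0.00183). Without replicate 3 these FDR were 0.209 and 0.0829, and without replicate 1 that for HC3 was 0.054.

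Of the 12 listed targets of NRF2, a transcription factor of the antioxidant response that also binds at *Hmox1* and the ferritin genes, all were tested. With HC3 in M[0] 10 rose and 1 fell, with RSM in M[0] 10 rose and 1 fell, with HC3 in M[IL-4] 8 rose and 2 fell, and with RSM in M[IL-4] 6 rose and 4 fell. The list medians were 0.80, 0.76, 0.40 and 0.20 on the log2 scale. *Slc7a11*, the cystine carrier, was at 4.78 ± 0.97 CPM (SD, n = 3) in Veh M[0], 73.8 ± 24.6 with HC3 and 177 ± 20.3 with RSM, a log2 FC of 3.95 (FDR = 8.07e-10) and 5.22 (FDR = 2.31e-11). Its log2 FC in M[IL-4] was 1.66 (FDR = 1.51e-05) and 2.10 (FDR = 7.82e-07). *Gclm*, a subunit of the enzyme that begins glutathione synthesis, rose in all 4 comparisons, by 2.25 and 2.12 in naïve and 1.69 and 1.21 in polarized cells for HC3 and RSM. *Nfe2l2*, which encodes NRF2, fell in all 4, by 0.61 and 0.39 in naïve and 0.56 and 0.53 in polarized cells. *Bach1*, the heme-sensing repressor of *Hmox1*, fell by 0.37 with HC3 in M[0] (FDR = 0.000493) and had values from -0.17 to 0.06 in the other comparisons, all with FDR above 0.05. The list of heme degradation, 7 genes tested, also holds the transcription factor genes *Nfe2l2*, *Bach1* and *Spic*. In this list 2 rose and 4 fell with HC3 and 1 rose and 3 fell with RSM, in each polarization. The genes behind these counts were not the same: with RSM the one that rose was *Hmox1* in M[0] and *Spic* in M[IL-4]. *Spic*, a transcription factor of heme-recycling macrophages, had a log2 FC of 1.31 with RSM in M[IL-4] (FDR = 0.0234). It was near the detection limit, at 0.64 ± 0.40 CPM (SD, n = 3) in Veh M[IL-4] and 1.59 ± 0.87 with RSM, and these libraries overlapped.

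Of 13 tested genes for iron uptake, the 5 importers included, 7 rose and 3 fell in each M[0] comparison and with HC3 in M[IL-4], and 6 rose and 4 fell with RSM in M[IL-4]. *Steap1* and *Steap2*, of the STEAP family that includes reductases of iron and copper, were called higher in all 4 comparisons. With RSM *Steap1* had a log2 FC of 2.54 (FDR = 3.92e-06) in M[0] and 2.55 (FDR = 1.07e-05) in M[IL-4], from a level of 1.09 ± 0.19 CPM in Veh M[0] (SD, n = 3). *Cd163*, the scavenger receptor for hemoglobin bound to haptoglobin, was called lower in all 4. It was at 18.1 ± 2.51 CPM in Veh M[0] (SD, n = 3), 2.54 ± 0.73 with HC3 and 8.04 ± 0.43 with RSM, and fell on the log2 scale by 2.83 and 1.17 in naïve and 2.65 and 1.94 in polarized cells for HC3 and RSM. *Cd163* is also a marker of macrophages, whose other markers moved as given above.

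Among the 14 zinc importers, the rise of *Slc39a14* and *Slc39a8* was not shared by the list: 3 rose and 2 fell with HC3 in M[0], 2 rose and 3 fell with RSM in M[0], 4 rose and 2 fell with HC3 in M[IL-4], and 3 rose and 3 fell with RSM in M[IL-4], with medians of 0.03, -0.02, 0.16 and 0.07. *Slc39a10*, a plasma membrane zinc importer, fell in all 4, by 0.52 and 0.83 in naïve and 0.96 and 1.32 in polarized cells for HC3 and RSM. None of the 6 tested zinc exporters was called, against 10.3 to 12.0% of all genes in the 4 comparisons. *Mt1*, a metallothionein that binds zinc and is induced by it, was at 98.9 ± 6.45 CPM in Veh M[0] (SD, n = 3), and its log2 FC was 0.12 with HC3 (FDR above 0.05) and 0.43 with RSM in M[0], where it rose; it fell by 0.26 with HC3 in M[IL-4]. *Mt2* was near the detection limit, at 0.53 ± 0.26 CPM in Veh M[0] and 2.82 ± 0.61 CPM with RSM (log2 FC 2.38, FDR = 0.000955). The antisense gene *Gm45774* overlaps 73.5% of the exons of *Mt2*, so its level and its change are uncertain.

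**Figure D3:**
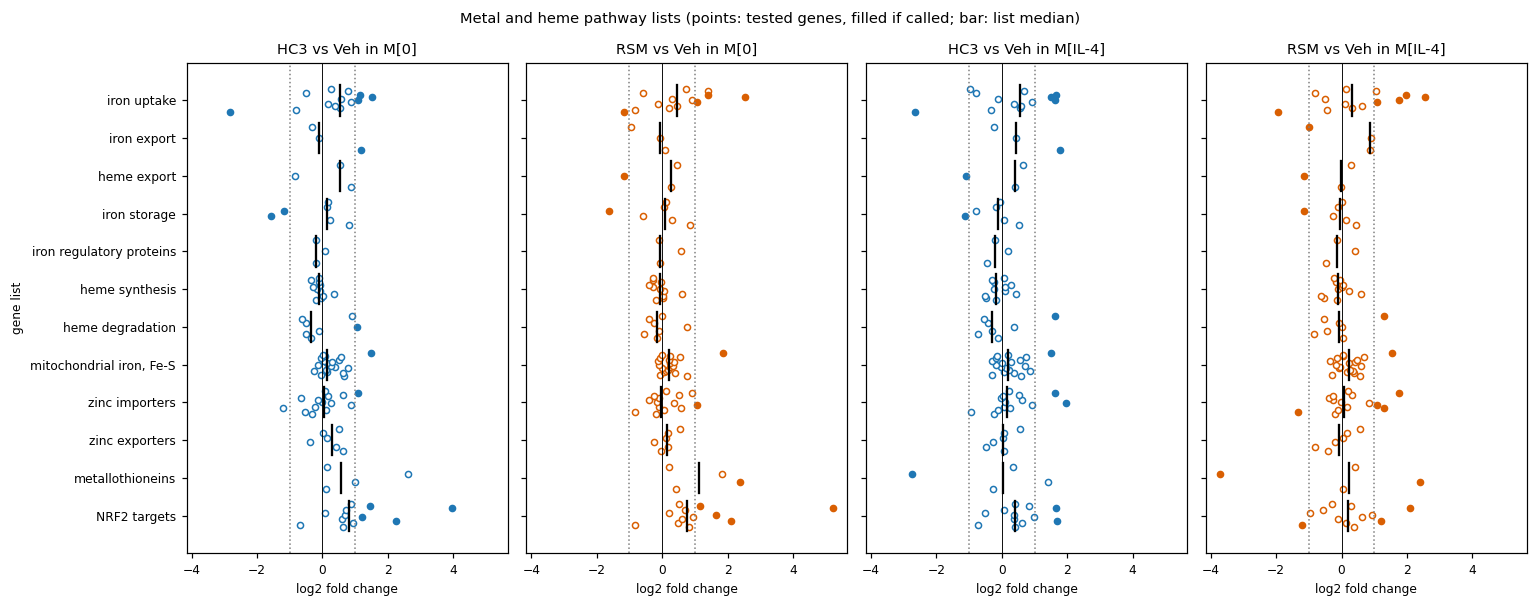
Log2 FC of every tested gene in 12 lists of metal and heme handling, for each inhibitor against Veh in M[0] and M[IL-4]; filled points are called genes, black bars are list medians and dotted lines mark -1 and 1. The NRF2 target list has medians of 0.80 and 0.76 in M[0], while the heme synthesis list has no filled point.

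The inhibitors were then compared with each other, over 2 comparisons of 10 genes with FDR taken over all genes. In M[0] the FDR threshold was passed by 4 members, 2 higher (6.18% of all genes) and 2 lower (7.43%) with HC3 than with RSM, and none was called, against 3.04% of all genes. *Slc40a1* was higher with HC3 by 0.64 ± 0.11 on the log2 scale (SE, FDR = 0.000345) and *Slc11a2* by 0.30 ± 0.08 (FDR = 0.0136). *Slc25a37* was lower with HC3, by -0.37 ± 0.06 (FDR = 0.000207), as was *Tfrc*, by -0.49 ± 0.14 (FDR = 0.0223). In M[IL-4] 3 members were higher (4.97% of all genes) and 1 lower (8.03%), and the latter, *Tfrc*, at -1.10 ± 0.14 (FDR = 1.52e-05), was called (1.59% of all genes were called lower). The higher members were *Slc40a1* (0.75 ± 0.11, FDR = 0.000153), *Hmox1* (0.38 ± 0.10, FDR = 0.0176) and *Slc11a2* (0.27 ± 0.08, FDR = 0.0258). Without replicate 3, *Slc11a2* (FDR 0.2 and 0.243), *Tfrc* in M[0] (0.23) and *Hmox1* (0.299) missed the threshold, and without replicate 1 so did *Slc11a2* (0.092) and *Hmox1* (0.0772) in M[IL-4]. With the replicate block within each polarization, *Hmox1* (FDR = 0.000374) and *Slc39a14* (FDR = 0.0206) passed it in M[0] as well, the first higher and the second lower with HC3. No difference between inhibitors passed the threshold for *Fth1*, with 95% intervals of the log2 difference of -0.22 to 0.18 in M[0] and -0.11 to 0.30 in M[IL-4], nor for *Slc39a8*, with -0.01 to 0.34 and -0.32 to 0.04.

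The largest differences of the 10 genes came with IL-4. In Veh cells, M[IL-4] against M[0], 1 member rose (16.1% of all genes) and 5 fell (14.9%), and 3 were called, *Tfrc* higher (2.83% of all genes) and *Slc40a1* and *Slc39a8* lower (3.83%). *Tfrc* was 5.03-fold higher (log2 FC 2.33 ± 0.14 SE, FDR = 4.99e-10) and *Slc40a1* 4.05-fold lower (-2.02 ± 0.11, FDR = 1.2e-10). *Slc39a8* fell by 1.13 ± 0.09 (FDR = 3.18e-08), *Slc11a1* by 0.86 ± 0.09 (FDR = 3.88e-07), *Slc25a37* by 0.74 ± 0.06 (FDR = 4.55e-08) and *Slc39a14* by 0.50 ± 0.09 (FDR = 0.000217). *Fth1* (log2 FC -0.12 ± 0.10, FDR = 0.365), *Ftl1* (0.07 ± 0.10, FDR = 0.654), *Hmox1* (-0.14 ± 0.10, FDR = 0.324) and *Slc11a2* (-0.13 ± 0.08, FDR = 0.223) did not pass.

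With HC3 the IL-4 comparison raised 1 member (7.22% of all genes) and lowered 7 (7.48%), of which 1 was called higher (1.82% of all genes) and 1 lower (2.14%). With RSM it also raised 1 (8.79% of all genes) and lowered 7 (6.74%), of which 1 was called higher (2.45%) and 2 lower (1.81%). *Slc40a1* fell by 1.96 ± 0.11 with HC3 (FDR = 3.45e-10) and by 2.07 ± 0.11 with RSM (FDR = 1.62e-10) and its interactions were 0.06 (FDR = 0.894) and -0.05 (FDR = 0.905). *Tfrc* rose by 1.11 ± 0.14 (FDR = 1.2e-05) with HC3 and by 1.72 ± 0.14 (FDR = 3.03e-08) with RSM. *Hmox1* fell by 0.82 ± 0.10 (FDR = 1.31e-05) with HC3 and by 0.91 ± 0.10 (FDR = 2.7e-06) with RSM. *Fth1* fell by 0.40 ± 0.10 (FDR = 0.00831) and 0.51 ± 0.10 (FDR = 0.000877), though without replicate 3 these FDR were 0.262 and 0.103. *Slc25a37* was called in RSM cells, with a fall of 1.06 ± 0.06 (FDR = 2.13e-10) that was -0.9997 without replicate 2. *Slc39a8* fell by 0.61 with HC3 (FDR = 4.08e-05) and by 0.31 with RSM (FDR = 0.017), the latter with FDR of 0.0541 to 0.173 when a replicate was left out and 0.0579 with no count filter. The differences of these IL-4 effects from that in Veh cells are the interactions given for each gene above. For HC3, 1 interaction was higher (3.08% of all genes) and 2 lower (3.40%) past the FDR threshold. For RSM, 1 was higher (5.05% of all genes) and 2 lower (4.14%), and none was called, against 2.14% of all genes.

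**Figure D4:**
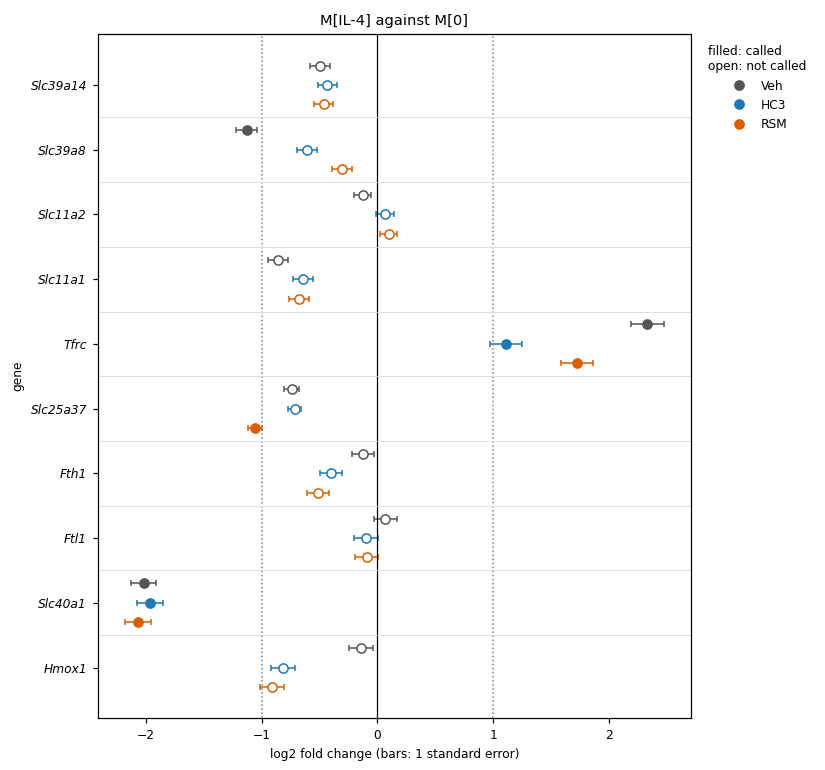
Log2 FC of M[IL-4] against M[0] for each gene in Veh (grey), HC3 (blue) and RSM (orange) cells, with bars of 1 SE; filled symbols are called and dotted lines mark -1 and 1. *Slc40a1* lies near -2 and *Tfrc* between 1.11 and 2.33 in all 3 series, whereas *Hmox1* lies near 0 in Veh cells and at -0.82 and -0.91 with the inhibitors.

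In order of level, the 6 groups stood apart from their neighbours for *Slc40a1* (Veh M[0] highest, then HC3 and RSM M[0], then Veh, HC3 and RSM M[IL-4]) and for *Slc39a8* (HC3 M[0] highest, then RSM M[0], RSM M[IL-4], HC3 M[IL-4], Veh M[0] and Veh M[IL-4]). For *Ftl1* every group overlapped the next. Between genes, levels were compared per kilobase of the union of all annotated exons. This union exceeds the longest transcript by an unequal margin, with 9000 against 3930 bases for *Slc40a1* and 6021 against 5930 for *Slc25a37*. The order of genes with close levels therefore depends on the choice of length. In Veh M[0] the ferritins led with 2796 ± 325 CPM per kb for *Fth1* and 3349 ± 301 for *Ftl1* (SD, n = 3), whose spread overlaps. The level of *Ftl1* is uncertain, as given above. *Hmox1* followed with 279 ± 21.6 CPM per kb and *Slc11a1* with 100.5 ± 5.49. *Slc40a1* (28.3 ± 1.91), *Tfrc* (16.8 ± 3.54), *Slc11a2* (16.3 ± 0.82) and *Slc25a37* (9.28 ± 0.31) came next, of which *Tfrc* and *Slc11a2* did not differ beyond their spread. *Slc39a14* (3.23 ± 0.24) and *Slc39a8* (2.36 ± 0.26) were lowest. In Veh M[IL-4] *Tfrc* stood at 84.4 ± 6.65 CPM per kb, above *Slc11a1* at 55.4 ± 7.05, and *Slc40a1* at 6.99 ± 0.61.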

How the data were processed

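Poly-T-selected RNA of BMDM was sequenced in 18 libraries. Per the paper's methods, the authors used fastp for adapter trimming and STAR (local mode, GRCm38) for alignment, required a mapping quality of 40 and left duplicates in after marking by Picard. The deposited values are raw counts of exonic reads per gene from Subread featureCounts. Versions and the strand setting are not given in the sources used here. Groups and replicate numbers came from the sample labels.

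A gene was tested if 2 or more libraries held 10 or more of its counts (14979 genes), and symbols were matched for 55144 of 55385 genes. R 4.3.3 and edgeR 4.0.16 (TMM, glmQLFit, glmQLFTest) were used in 1 model over the 18 libraries, with a mean for each group, Benjamini-Hochberg adjustment over all genes, and SE taken as the log2 FC over the square root of F. Intervals are 95%. P-values measure the spread between libraries of 3 mice. The step was tested on simulated counts. UTRs came from the GENCODE annotation of GRCm38, and near-identical transcripts from blastn 2.17.0 (at least 98% identity over 100 bp). Libraries of the same group were tested for identity, and none of the 18 pairs agreed within counting noise.

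Deviations of same-numbered libraries from their group means correlated at 0.11 to 0.372 within a polarization (18 of 18 pairs over 0.1). Across polarizations these correlations were -0.031 to 0.30 (12 of 27 over 0.1), and those of libraries with other numbers -0.238 to 0.198 (10 of 54 over 0.1). Numbers were therefore taken as pairs within a polarization. Whether they also pair libraries across polarizations cannot be told from these values, and the labels name 3 individual mice. The main model has no term for these pairs, which enter only in the alternatives with a block. The alternatives were a replicate block, a replicate block within each polarization, DESeq2 1.42.0, a model restricted to the groups compared, filterByExpr or no count filter, no TMM scaling, and omission of replicate 1, 2 or 3.

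The members, lists and tests were chosen with earlier results of these data known. Named genes are the 10 members, up to 3 called genes of each list with the lowest FDR, and set partners (*Flvcr1*, *Bach1*, *Nfe2l2*, *Mt1*, *Mt2*, *Ncoa4*, *Aco1*, *Ireb2*, *Fbxl5*, *Slc25a28*); *Nfu1* was named after its values were seen.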

Additional observations from a re-analysis of the deposited data

Results flagged for a closer look

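The effect of an inhibitor differed between M[IL-4] and M[0] past the FDR threshold, by edgeR's test of the interaction, for 4 of the 10 genes (differences in log2 FC, M[IL-4] minus M[0]). Of all genes tested, 3.08% were higher and 3.40% lower past this threshold for HC3, and 5.05% and 4.14% for RSM. *Tfrc* differed with HC3 by -1.22: in M[0] the log2 FC against Veh was 0.25 (FDR = 0.151, with overlapping libraries), and in M[IL-4] it fell by 0.97. *Hmox1* differed with HC3 by -0.68 and with RSM by -0.77, and *Slc39a8* with HC3 by 0.52 and with RSM by 0.82. *Slc25a37* differed with RSM by -0.32. These 6 differences had FDR from 0.000291 to 0.0249, and all 6 missed the FDR threshold without replicate 3. Of all genes tested, 0.300% were then higher and 0.287% lower past this threshold for HC3, and 1.03% and 0.774% for RSM.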

How the results depend on the processing

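In 110 tests of the 10 genes, calls and directions were the same under DESeq2, filterByExpr, no count filter, only the compared groups and both replicate blocks. With the replicate block, for example, the *Tfrc* interaction with RSM had an FDR of 0.00413. The block changed no call that also needs the FC threshold, and results it moved across the FDR threshold alone within a polarization or in an interaction have that value beside them. Without TMM scaling *Slc40a1* with RSM in M[IL-4] was -0.95 and not called, and *Hmox1* there was 0.0497. When a replicate was left out, which leaves 2 libraries per group, the number of members called for the HC3 interaction was 0 to 1 (0 without replicate 3, with *Tfrc* at -1.28).

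Values near 0 with FDR above 0.05 turned sign when a replicate was left out, and their log2 values then ranged as follows. *Ftl1* ranged over -0.0165 to 0.1152 with HC3 in M[IL-4], -0.0226 to 0.1208 with IL-4 in Veh and -0.288 to 0.0156 with IL-4 in HC3 (0.0052 without replicate 2). *Hmox1* with RSM in M[IL-4] ranged over -0.0447 to 0.0484. The HC3 interaction ranged over -0.0038 to 0.1856 for *Slc39a14* and -0.0567 to 0.0858 for *Slc25a37*. The RSM interaction ranged over -0.0692 to 0.125 for *Slc39a14*, -0.0077 to 0.2808 for *Slc11a1* and -0.1876 to 0.0673 for *Slc40a1*. HC3 against RSM ranged over -0.0866 to 0.0136 for *Fth1* in M[0] and -0.0648 to 0.0182 for *Slc11a1* in M[IL-4]. The cause was not tested.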

Other observations

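The ratio of *Fth1* to *Ftl1* counts was 1.95 to 2.28 in Veh M[0], 2.99 to 3.54 with HC3 and 2.95 to 3.29 with RSM, and 1.85 to 1.96, 2.49 to 2.89 and 2.22 to 2.48 in M[IL-4], with no overlap between Veh and either inhibitor within a polarization. The ratio was not tested, and the *Ftl1* counts in it are uncertain because of near-identical copies. The ratio of *Slc39a14* to *Slc39a8* counts was 1.83 to 1.97 in Veh M[0] and 2.62 to 3.44 in Veh M[IL-4], and 1.52 to 2.17 over the 4 inhibitor groups.

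Among the 10974 genes that averaged 50 counts or more, the one whose log2 CPM ran most like that of *Slc39a14* over the 18 libraries was *Slc25a37*, another of the 10 genes (Pearson r 0.98), followed by *Ifitm6* (0.97). *Ifitm6* (0.99) and *Lonrf1* (0.98) were most like *Slc25a37*, *Laptm4b* and *Smim3* most like *Slc39a8* (both 0.98), *Slc22a4* (0.95) and *Bhlhe41* (0.95) most like *Fth1*, *Pmaip1* (0.97) and *Jag1* (0.95) most like *Slc40a1*, *Adora2b* (0.96) and *Med23* (0.95) most like *Tfrc*, *Ubap1* (0.94) and *Cat* (0.93) most like *Hmox1*, *Pdlim2* and *Dkk2* (both 0.95) most like *Slc11a1*, *Atg4d* (0.90) and *Cebpb* (0.89) most like *Ftl1*, and *Casp4* (0.85) and *Fam83f* (0.84) most like *Slc11a2*. The 18 libraries share 6 treatment groups, so these values describe the pattern over the groups.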
